A study of Mus musculus with 4 samples.

Results

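Of the 49993 genes with a count in the deposited tables, 6 belong to the Ms4a4 and Ms4a6 branches of the membrane-spanning 4-domains subfamily A together with Ms4a14, and they are described here gene by gene. They were chosen by symbol (Ms4a4a, Ms4a4b, Ms4a6b, Ms4a6c, Ms4a6d and Ms4a14), and all 6 were listed in every table. The RNA came from CD11b+ microglia, the resident macrophages of the brain, pulled out of 10-month-old mouse brain on magnetic beads. Both groups bear the amyloid-driving transgenes APP/PS1, either with asrij intact (APP/PS1+ asrij+/+, AD, n = 2 libraries) or with a constitutive deletion of asrij (APP/PS1+ asrij-/-, AD/KO, n = 2 libraries), so that the loss is not limited to microglia. No group without APP/PS1 is analysed here, so that amyloid is common to both groups. Whether libraries came from separate animals, or pool several, is not given in the sources used here. The p-values then measure only the spread between these libraries.

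MS4A proteins cross the cell membrane several times and sit beside receptors, where some of them modulate signalling. The best known relatives are CD20 of B cells (Ms4a1) and the beta chain of the high-affinity IgE receptor (Ms4a2). In human genetics the MS4A gene cluster is one of the loci tied to the risk of Alzheimer's disease and to the amount of soluble TREM2, and in the brain its myeloid members are expressed mainly by microglia and macrophages. Ms4a4a is a surface protein of macrophages that associates with the beta-glucan receptor Dectin-1 (Clec7a), Ms4a6c is a gene of monocytes and macrophages, Ms4a6d is best known from macrophages, and Ms4a4b and Ms4a6b were studied mostly in T cells.

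The members lie in 1 stretch of 303.6 kb of chromosome 19 (RefSeq, build GRCm38.p6, chr19:11301249-11604804), 4 on the plus strand and 2 on the minus strand, and all are protein-coding. Ms4a14 (chr19:11301249-11315877, minus) comes first, then Ms4a4a (chr19:11375488-11392915, plus), Ms4a4b (chr19:11443558-11463549, plus), Ms4a6c (chr19:11469353-11487182, plus), Ms4a6b (chr19:11518559-11530403, plus) and Ms4a6d (chr19:11586606-11604804, minus). Ms4a6c overlaps the long non-coding gene BE692007 on the other strand, and in GENCODE M21 Ms4a6b overlaps the antisense gene Gm19261. The use of strand in counting is not given in the sources used here, so that the reads of these overlapping pairs cannot be told apart.

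The Ms4a6 paralogs are close copies. Over the coding sequence Ms4a6b matched Ms4a6c at 86.3% of aligned bases and Ms4a6d at 81.8%, and Ms4a6c matched Ms4a6d at 79.7%. As a share of the longer sequence these were 75.6%, 80.5% and 68.5%, so that the order depends on the measure. Gaps can raise the share of aligned bases: Ms4a6d and Ms4a14 matched at 83.3% of them, but at 16.8% of the longer sequence. Ms4a4b matched Ms4a4c at 91.8%, and Ms4a4a matched Ms4a4b at only 69.9%. The likeness of Ms4a6b and Ms4a6c extends to the 250 bases before the transcript start that the RefSeq promoter table uses, where the 2 sequences matched at 85.1% of 175 aligned bases. These promoters are shown, 5′ to 3′ on the plus strand, because the likeness of these paralogs is not limited to their coding sequence. Capitals mark the longest stretch they have in common, 48 bases.
Ms4a6b, chr19:11518309-11518558: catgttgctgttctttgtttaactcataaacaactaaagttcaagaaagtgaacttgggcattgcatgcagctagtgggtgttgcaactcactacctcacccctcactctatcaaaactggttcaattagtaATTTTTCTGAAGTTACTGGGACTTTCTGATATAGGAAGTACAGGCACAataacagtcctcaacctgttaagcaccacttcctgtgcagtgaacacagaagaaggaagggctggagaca
Ms4a6c, chr19:11469118-11469367: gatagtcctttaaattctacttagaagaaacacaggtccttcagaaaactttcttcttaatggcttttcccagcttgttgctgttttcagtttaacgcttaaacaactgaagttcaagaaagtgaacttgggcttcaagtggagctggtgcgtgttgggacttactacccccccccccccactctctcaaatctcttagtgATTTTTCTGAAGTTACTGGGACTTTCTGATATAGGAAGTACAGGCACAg
The table's start is the outer end of the gene for Ms4a6b, Ms4a4a and Ms4a4b, but lies 15 bases inside Ms4a6c and 1423 bases inside Ms4a14 as placed above. Counted from the table's starts, the shared stretch begins 118 bases before that of Ms4a6b and 49 bases before that of Ms4a6c, so that in Ms4a6c its end lies within the gene, and no other gene's promoter in the RefSeq table for GRCm38.p6 holds it. The table gave a promoter for 5 of the 6 members. Among the other pairs of these 5 the longest shared stretch was 7 to 9 bases. On either strand, the ETS-type motif GAGGAA was found 64 bases before the table's start of Ms4a4b and 84 bases before that of Ms4a14, the latter inside the gene, and 23.3% of all 32851 promoters hold it. The core of the interferon-stimulated response element (in 2.98% of promoters) and the STAT motif TTCNNNGAA (in 7.02%) were not found in these windows. A match, or none, describes these letters only.

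Close copies also limit the counts. In windows of 50 bases, 29.0% of the Ms4a6b transcript, 9.73% of Ms4a6d and 9.31% of Ms4a4b were identical to another gene's transcript, among them Ms4a6c, the pseudogene Gm10212 and Ms4a4c. For Ms4a6c the share was 65.9%, and 31.3% once the overlapping BE692007 was set aside. Only 19.2% of Ms4a6c was shared with Ms4a genes or Gm10212, and genes outside the family shared other parts. For Ms4a4a and Ms4a14 the share was 0%. In windows of 100 bases Ms4a6b and Ms4a6d shared nothing, and Ms4a6c shared 0% with Ms4a genes or Gm10212. With BE692007 counted, 59.1% of Ms4a6c was still shared in such windows. How reads that fit several places were treated is not given in the sources used here, so that the split of reads among the Ms4a6 paralogs, and between Ms4a4b and Ms4a4c, is uncertain.

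The libraries held from 13102622 to 19810076 counts. AD and AD/KO stand for the labels throughout, since Ociad1, the asrij gene, was lower but present in AD/KO (35.5 ± 4.78 CPM, SD, n = 2) against AD (56.8 ± 9.39 CPM, SD, n = 2). CPM is the read count scaled to library size by TMM. The homeostatic microglia markers were all read in every library. AD replicate 2 stood apart in Xist (1391 reads against 3 to 15 elsewhere) and in the 12 neutrophil markers (summed level 5752 CPM against 874 to 1404). AD/KO replicate 2 had the lowest summed level of the 25 homeostatic microglia markers, 11502 CPM against 22829 to 32794, and the highest of the 12 neuron markers, 4240 CPM against 526 to 1666.

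At the level of the group means all 6 members were lower in AD/KO than in AD, but none of the 5 that could be tested passed the threshold. The abundant Ms4a6b and Ms4a6d, at 1.66 to 1.70 times higher mean CPM in AD, overlapped between the groups, because AD/KO replicate 1 was at the AD level. Ms4a6c and Ms4a4a had their highest AD/KO value under their lowest AD value, as did 21.7% of all genes tested. So did the sparse, untested Ms4a4b, whose nearest libraries held only 6 (AD) and 4 (AD/KO) reads. After Benjamini-Hochberg adjustment over all genes in edgeR's quasi-likelihood test, 0 of the 5 members had an adjusted p under 0.05 (0.654 to 0.676), as did 0% of the 21439 genes tested (1174 at an unadjusted p under 0.05). In all 5 the fitted log2 fold change was below 0, as in 52.8% of all genes, and their median was −1.06 against −0.05 for all genes tested.

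**Figure D1:**
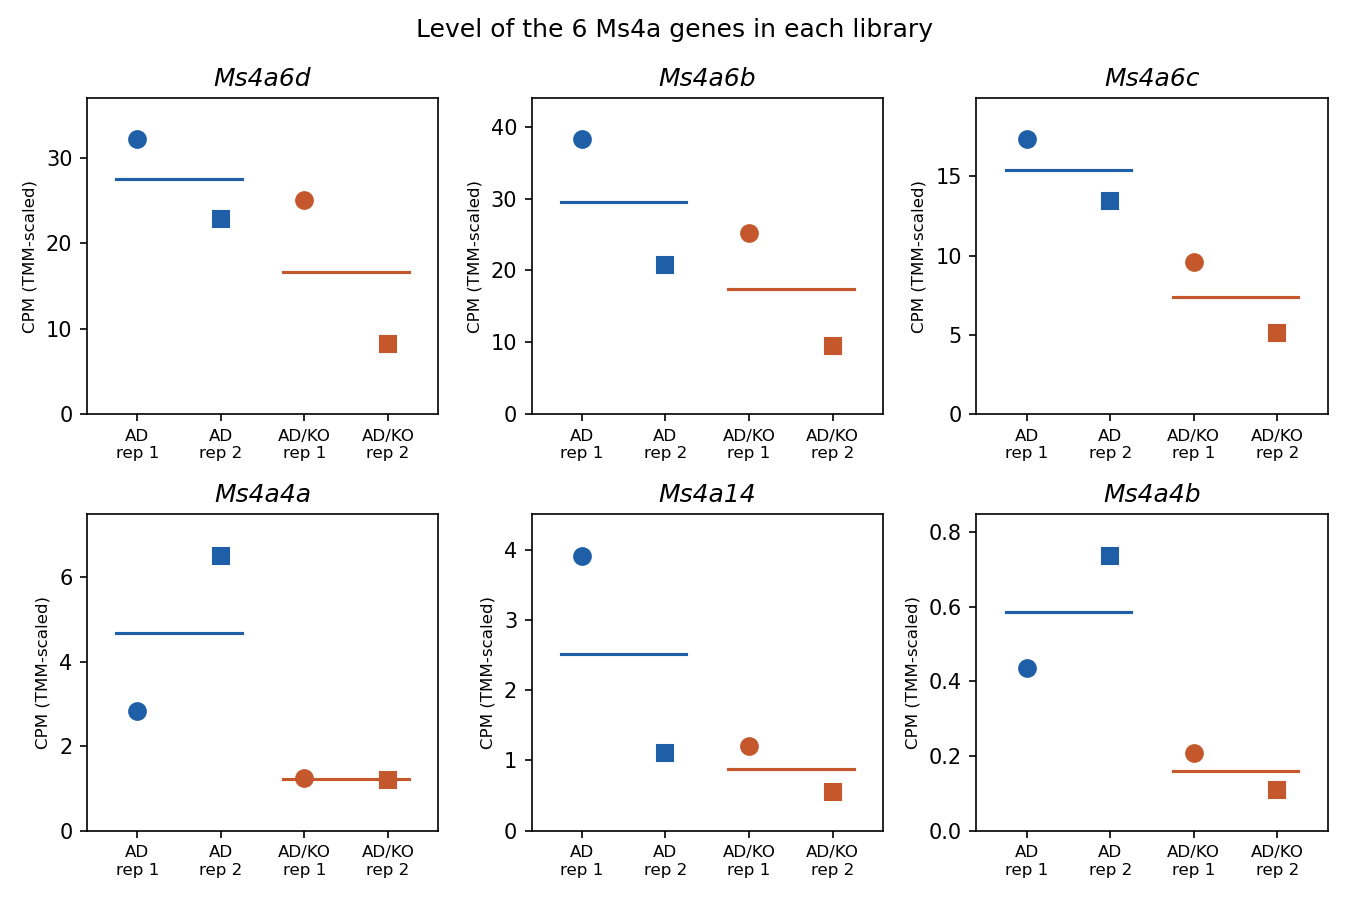
Level of each of the 6 Ms4a genes (y axis, CPM after TMM scaling, from 0) in the 4 libraries (x axis); lines are group means, circles replicate 1 and squares replicate 2. AD/KO replicate 2 is the lowest point in every panel, and the groups are apart for Ms4a6c, Ms4a4a and Ms4a4b.

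Ms4a6d was at 32.2 and 22.9 CPM in the AD libraries (replicates 1 and 2) and at 25.02 and 8.19 CPM in the AD/KO libraries. AD/KO replicate 1 lay between the AD libraries, and AD/KO replicate 2 lay 3.05-fold below its own replicate. The log2 fold change was −0.73 (SE 0.59, adjusted p = 0.676 by edgeR's quasi-likelihood test). It was −0.13 when AD/KO replicate 2 was dropped, −1.69 when AD/KO replicate 1 was and −0.46 when AD replicate 1 was, so that the size rested on which libraries were kept.

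Ms4a6b, its close copy, was at 38.2 and 20.7 CPM in AD and at 25.2 and 9.55 CPM in AD/KO. The libraries fell in the same order as for Ms4a6d, with the first AD library highest, AD/KO replicate 1 just above AD replicate 2, and AD/KO replicate 2 lowest. The log2 fold change was −0.76 (SE 0.58, adjusted p = 0.666 by edgeR's quasi-likelihood test), and dropping 1 library moved it between −1.57 (AD/KO replicate 1 dropped) and −0.22 (AD/KO replicate 2 dropped). It was −0.26 when AD replicate 1 was dropped. Within each library there were from 0.906 to 1.19 reads of Ms4a6b per read of Ms4a6d, a span of 1.31-fold while each gene alone spanned 3.92-fold to 4.005-fold.

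Ms4a6c was at 17.3 and 13.5 CPM in AD and at 9.59 and 5.16 CPM in AD/KO. The groups did not overlap, with a gap of 1.40-fold between their nearest libraries. The group means were 15.4 ± 2.75 and 7.37 ± 3.14 CPM (SD, n = 2 each). The log2 fold change was −1.06 (SE 0.45, adjusted p = 0.654 by edgeR's quasi-likelihood test), and −0.67 without AD/KO replicate 2. The antisense gene BE692007 was apart in the same direction, at 11.3 and 7.19 CPM in AD and at 4.69 and 1.95 CPM in AD/KO. So was Gm8369, the protein-coding gene between Ms4a6c and Ms4a6b, at 4.94 and 2.40 CPM in AD and at 1.41 and 1.248 CPM in AD/KO. Of all genes tested, 21.7% were lower in AD/KO without overlap. With libraries scaled to the homeostatic microglia markers, Gm8369 overlapped, at 3.44 and 2.33 scaled CPM in AD and 0.970 and 2.66 in AD/KO. BE692007 stayed apart on that scale, where 9.18% of all genes tested were lower without overlap. These neighbours were chosen after their values were seen.

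Ms4a4a drew 39 and 106 reads in AD and 24 and 22 in AD/KO. In CPM this was 2.83 and 6.52 in AD and 1.251 and 1.19 in AD/KO, so that the AD/KO libraries were alike and the AD libraries were 2.30-fold apart. Its log2 fold change was −1.93 (SE 0.64, adjusted p = 0.654 by edgeR's quasi-likelihood test). It was the only member with an unadjusted p under 0.05, which 2.47% of all genes reached in this direction and 3.01% in the other. Without AD replicate 2, its highest library, the log2 fold change was −1.14.

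Ms4a14 had 54 and 18 reads in AD and 23 and 10 in AD/KO. AD replicate 1 stood at 3.92 CPM, and the other libraries stood at 1.11 (AD, second library), 1.20 and 0.543 CPM (AD/KO). The groups overlapped, and the log2 fold change of −1.51 (SE 0.86, adjusted p = 0.654 by edgeR's quasi-likelihood test) was −0.35 without AD replicate 1.

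Ms4a4b was close to the limit of detection, with 6 and 12 reads in AD and 4 and 2 reads in AD/KO. It did not pass the filter on low counts and was not tested. Summed by group there were 18 and 6 reads, a level 3.76-fold higher in AD (95% interval 1.43 to 11.6, exact binomial, counting error only), which compares these libraries and not the genotypes. Most T and NK cell markers were sparse too. Of the 20 T and NK cell markers 12 had at most 10 reads in every library, Cd3e had 0, 0, 1 and 2 reads, and the summed level of the list was 7.40 to 13.1 CPM. The highest count of any of them was 52, and of the 5 tested 3 had a fitted value above 0 and 2 below (median 0.57). Both Ms4a4b and this list were highest in AD replicate 2. In AD/KO replicate 2, the lowest library of Ms4a4b, the list was at 10.1 CPM, against 9.22 CPM in AD replicate 1. The part of T cells in the Ms4a4b reads was not tested.

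Of the 5 members tested, 2 (Ms4a6c and Ms4a4a) had both AD/KO libraries below both AD libraries, against 21.7% of all genes tested. With 2 libraries a group, an exact permutation test of a single gene cannot give a two-sided p below 0.333. Leaving out any 1 library left all 5 fitted values below 0, with the median between −1.69 and −0.46. DESeq2 called 0 of the 5 members (0.42% of all genes). With the replicate number as a block, 3 members passed (Ms4a6c, Ms4a4a and Ms4a6b), as did 6.63% of all genes in this direction, but the labels do not say that equal numbers pair libraries.

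Per kilobase of transcript, the scale on which levels of different genes can be compared, Ms4a6d and Ms4a6b led. The means over the 4 libraries were 15.6 ± 7.09 CPM per kb for Ms4a6d and 13.9 ± 7.04 for Ms4a6b (SD, n = 4), with overlapping ranges. This SD spans both groups and does not measure the difference between the genes within a library. In AD Ms4a6d was at 22.67 and 16.1 CPM per kb and Ms4a6b at 22.67 and 12.3. In AD/KO Ms4a6d was at 17.6 and 5.78 CPM per kb and Ms4a6b at 14.9 and 5.66. Ms4a6c followed at 6.19 ± 2.84 and Ms4a4a at 3.53 ± 2.99 CPM per kb, whose ranges also overlapped. Ms4a14 at 0.416 ± 0.372 and Ms4a4b at 0.0784 ± 0.0588 CPM per kb came last. Over all annotated exons of GENCODE M21, which include retained introns of Ms4a6b, Ms4a6b and Ms4a6c changed places at 5.22 ± 2.65 and 5.56 ± 2.55 CPM per kb.

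Between them the 6 members took 1308 and 1064 reads in AD and 1198 and 456 reads in AD/KO, a summed level of 80.2 ± 20.9 CPM in AD and 43.6 ± 26.7 CPM in AD/KO (SD, n = 2 each). Ms4a6d made up 33.1% to 40.1% of these reads in a library and Ms4a6b 31.7% to 40.3%. The make-up was most unlike in AD replicate 2, where Ms4a4a took 9.96% (exact binomial 95% interval 8.23% to 11.9%) against 2.003% to 4.82% elsewhere. The ratio of Ms4a4a to Ms4a6d reads spanned 5.70-fold over the libraries and that to Ms4a6c reads 3.71-fold. In level Ms4a4a thus did not keep step with these 2 Ms4a6 genes.

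Since the level of microglial RNA itself differed between libraries, the members were also set against the homeostatic microglia markers, a list of 25 genes such as P2ry12, Tmem119 and Csf1r. In bulk samples, fewer microglia and less of these RNAs per cell cannot be told apart. With libraries scaled to this list the all-gene median moved up by 0.68 on the log2 scale, to 0.63, and the members had a median of −0.54. The median of the members then differed from that of all genes by −1.17, against −1.01 with TMM scaling. Scaling moves all genes of a library by the same factor, so this difference could change only little. It does not measure the members against the markers.

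On this scale the Ms4a6 genes drew together. Ms4a6d stood at 22.4 and 22.2 scaled CPM in AD and at 17.3 and 17.4 in AD/KO, a span of 1.298-fold over the 4 libraries against 3.92-fold before. The replicates of each group nearly coincided, and the groups, which overlapped with TMM scaling, were apart by 1.29-fold in the mean. Ms4a6b stood at 26.7 and 20.1 scaled CPM in AD and at 17.4 and 20.3 in AD/KO, and still overlapped. Ms4a6c stood at 12.1 and 13.1 in AD and at 6.61 and 10.97 in AD/KO, still apart, with AD/KO replicate 1 now its lowest library.

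Ms4a4a did not draw together on this scale. It stood at 1.97 and 6.33 scaled CPM in AD and at 0.862 and 2.54 in AD/KO, so that its groups now overlapped. The span of Ms4a4a grew to 7.33-fold from 5.46-fold, whereas that of Ms4a14 shrank to 3.30-fold from 7.22-fold and that of Ms4a4b to 4.98-fold from 6.80-fold. Of the 5 members tested, 2 (Ms4a6d and Ms4a6c) were lower in AD/KO without overlap on this scale, against 9.18% of all genes tested, and so was the untested Ms4a4b. The fitted log2 fold changes ran from −1.44 (Ms4a4a, SE 1.04) to −0.31 (Ms4a6b, SE 0.84), and none passed the threshold (adjusted p of 0.836 to 0.932 by edgeR's quasi-likelihood test).

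**Figure D2:**
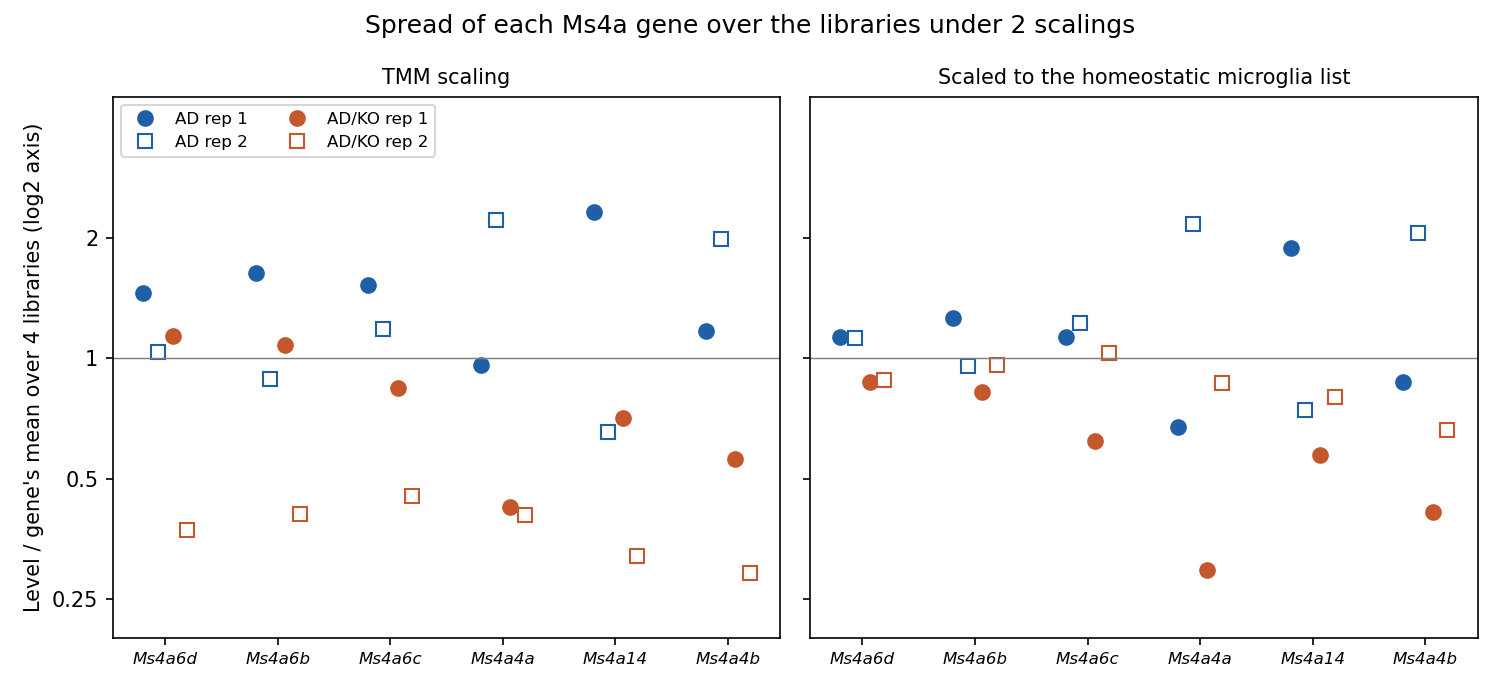
Level of each member in each library divided by its mean over the 4 libraries (y axis, log2 axis), with TMM scaling (left) and with libraries scaled to the homeostatic microglia list (right). With the second scaling the points of Ms4a6d span 1.298-fold in place of 3.92-fold, and AD/KO replicate 2 is no longer the lowest library of every gene.

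The profile over the 4 libraries set the members side by side without regard to level. Likeness was measured as the root mean square difference of log2 CPM, each gene centred on its own mean, against the 13768 or 13769 other genes with a mean of at least 5 CPM. Ms4a6b and Ms4a6d differed by 0.16, and 4.01% of genes were closer to Ms4a6b than Ms4a6d was. Ms4a6c differed from Ms4a6d by 0.27 and from Ms4a6b by 0.29. Ms4a4a differed from the other 4 members tested by 0.69 to 1.11, least from Ms4a6c. Yet only 3.42% of genes were closer to Ms4a4a than Ms4a6c was, so that this pair was close by that share. For Ms4a6d, Ms4a6b and Ms4a14 the share closer to Ms4a4a was 26.4%, 42.4% and 67.4%. With only 4 libraries, profiles this close are common.

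The nearest genes to Ms4a6d were Elf4, an ETS-family transcription factor, and Ctsh, the lysosomal protease cathepsin H, which differed from it by 0.0185 and 0.0223. For Ms4a6b they were Cd27, a receptor of the TNF receptor family, and Gm15886, at 0.0199 and 0.0203. For Ms4a6c they were Zfp40, a zinc finger gene, and Macroh2a3, at 0.0356 and 0.0424. Ms4a4a was nearest to Cenpe, a motor protein of the mitotic kinetochore, and Antxr2, an anthrax toxin receptor, at 0.0758 and 0.0790. For Ms4a14 they were Gm30723 and Gm39673, at 0.110 and 0.158. Cenpe showed the pattern of Ms4a4a at a higher level, with 7.40 and 14.6 CPM in AD and 3.02 and 2.98 CPM in AD/KO.

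Of 18 other family genes listed, 17 were listed in the files and 5 were tested. None of these 5 had an adjusted p under 0.05. All 5 had a fitted value below 0 (52.8% of all genes), and their median was −1.42. Of these 5, 3 were lower in AD/KO without overlap, against 21.7% of all genes tested. Ms4a4c, the close copy of Ms4a4b, was at 5.73 and 4.67 CPM in AD and at 1.51 and 0.488 CPM in AD/KO, the lowest fitted value of the family at −2.37 (SE 0.70, adjusted p = 0.654 by edgeR's quasi-likelihood test). Ms4a7, a gene of brain-border and tissue macrophages, was at 5.44 and 3.13 CPM in AD and at 1.56 and 0.760 CPM in AD/KO, with a fitted value of −1.87 (SE 0.65). In both, as in Ms4a4a and Ms4a6c, the groups did not overlap, and in Ms4a4c the nearest libraries were 3.09-fold apart. Both also stayed apart when scaled to the homeostatic list, where 9.18% of all genes tested were lower without overlap.

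Ms4a1 (CD20) had 20 and 28 reads in AD and 5 and 17 in AD/KO, apart with TMM scaling and overlapping when scaled to the homeostatic list. Tmem176a and Tmem176b, distant relatives outside the cluster, overlapped between the groups, with log2 fold changes of −0.30 (SE 0.50) and −0.19 (SE 0.50) that turned above 0 when scaled to the homeostatic list (0.12 and 0.25). Ms4a3, a gene of granulocyte and monocyte progenitors, had 38 reads in AD replicate 2 and 0 in the other libraries. Ms4a2 likewise had 6 reads there and 0 elsewhere. Ms4a2 was named after its values were seen. The genes Ms4a5, Ms4a10, Ms4a12, Ms4a13, Ms4a19 and Ms4a20 had 0 reads in every library, and a count of 0 allows up to 3 counts a library. They too were named after their values were seen.

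**Figure D3:**
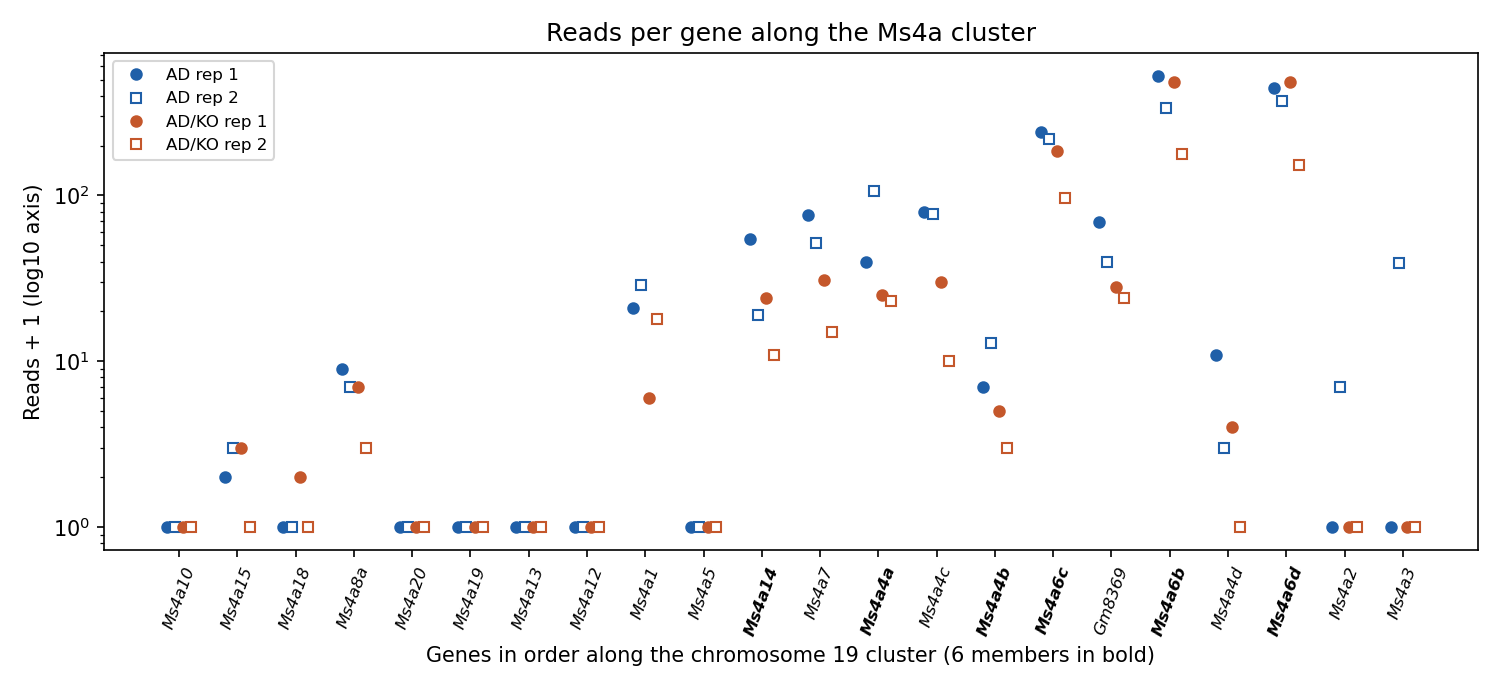
Reads per gene plus 1 (y axis, log10 axis) for the genes of the Ms4a cluster in their order along the chromosome (x axis), members in bold, 1 point per library. Ms4a6b, Ms4a6d and Ms4a6c have the most reads in every library, and Ms4a3 at the far end was read in AD replicate 2 alone.

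Monocyte and border-associated macrophage markers were mostly lower in AD/KO, but none had an adjusted p under 0.05 in edgeR's quasi-likelihood test. All 13 monocyte markers had a fitted value below 0 (52.8% of all genes; median −1.85), 11 of them lower without overlap (21.7% of all genes), and their summed level was 296 and 804 CPM in AD and 132 and 194 CPM in AD/KO. Ccr2, the chemokine receptor that defines blood monocytes, had 548 and 650 reads in AD and 197 and 113 in AD/KO. The 14 border-associated macrophage markers had a median of −0.87, with 12 below 0 and 9 lower without overlap. Their summed level of 846 and 554 CPM in AD and 825 and 329 CPM in AD/KO was mostly Stab1, which overlapped between the groups. Without Stab1 it was 167 and 127 CPM in AD and 85.7 and 78.0 CPM in AD/KO, a choice made after the values were seen. Microglial genes of the disease-associated list were mostly lower too, with 23 of 26 lower without overlap and a median of −1.70. The dendritic cell markers went both ways, 5 below 0 and 2 above of 7 tested. The monocyte list and Ms4a4a both had their highest level in AD replicate 2. No marker of either list was at 0 in any library, and the part of monocytes and border macrophages in the levels of the members was not tested.

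Ms4a4a is tied to Dectin-1 and to soluble TREM2, so 14 genes of these receptors, their adaptors and the proteases that shed TREM2 were listed. All 14 were tested, and 0 had an adjusted p under 0.05 in edgeR's quasi-likelihood test. All fitted values were below 0 (52.8% of all genes), with a median of −0.55. Of the 25 homeostatic microglia markers 21 were below 0 too, with a median of −0.38, so that this direction was not particular to the 14. Only Clec7a, which encodes Dectin-1, had an unadjusted p under 0.05. Clec7a was at 81.9 ± 4.80 CPM in AD and 9.995 ± 0.168 CPM in AD/KO (SD, n = 2 each), a log2 fold change of −3.03 (SE 0.28). Its adjusted p by edgeR's quasi-likelihood test was 0.654, and 0.638 to 0.691 with other size factors, other filters or the legacy fit. When scaled to the homeostatic list it was 0.828, at a log2 fold change of −2.32 (SE 0.96). Clec7a passed in DESeq2 (1.41e-05) and in edgeR with the replicate block (0.00363). The log2 fold change of Clec7a was −3.10 without AD replicate 1 and −2.91 without AD replicate 2. Trem2 followed the overlapping pattern of Ms4a6d, at 426 and 332 CPM in AD and at 425 and 109 CPM in AD/KO. Trem2, Adam10 and Adam17 were named after their values were seen. The sheddases Adam10 and Adam17 overlapped as well, with log2 fold changes of −0.54 (SE 0.47) and −0.55 (SE 0.51).

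**Figure D4:**
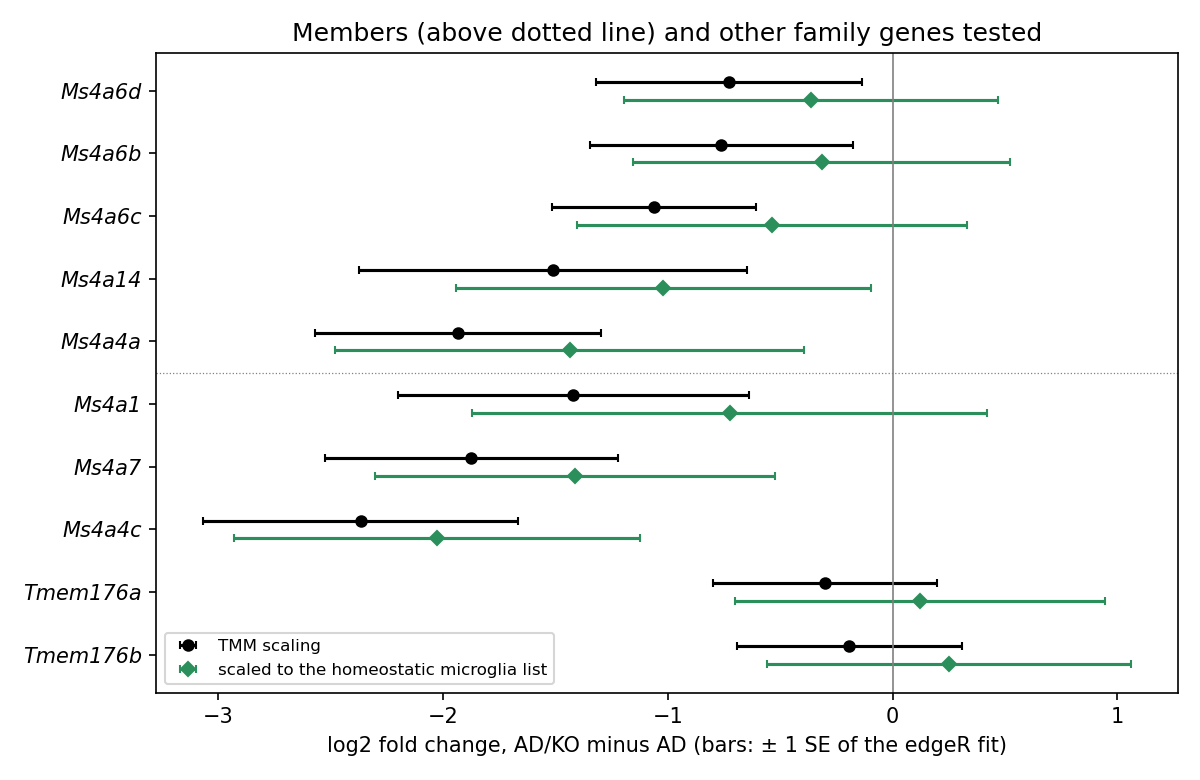
Log2 fold change, AD/KO minus AD (x axis, bars 1 SE of the edgeR fit), of the 5 members tested (above the dotted line) and 5 other family genes, with TMM scaling (black) and with libraries scaled to the homeostatic list (green). The values of Ms4a6d and Ms4a6b moved from −0.73 and −0.76 to −0.36 and −0.31, and those of Tmem176a and Tmem176b crossed 0.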

How the data were processed

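Total RNA of CD11b+ microglia was depleted of ribosomal RNA and made into stranded libraries, per the labels' protocols. The deposited values are raw counts of reads for each gene symbol, in whole numbers. The submitters' processing notes name HISAT2, SAMtools, featureCounts (Subread), FastQC, DESeq2 1.30.0 and build mm10. The annotation, strand setting and treatment of multi-mapping reads are not given in the sources used here. In every file, 11 broken lines held no count, so that 4 genes, no member among them, were not analysed here. Libraries held 13102622 to 19810076 counts, and counting intervals cover counting error only.

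Genes were kept by filterByExpr (minimum count 10, minimum total 15), scaled by TMM and tested in edgeR 4.0.16 (R 4.3.3) by the quasi-likelihood method, fitted to the 4 libraries with no covariate, with Benjamini-Hochberg adjustment over all 21439 genes at 0.05. The SE is the log2 fold change over the square root of F. On simulated data of this comparison (20783 genes, 200 changed by 3 on the log2 scale), 88.5% of changes were called. The changed genes were drawn only from those with a mean of at least 5 CPM. Ms4a4a (2.95 CPM over all libraries) and Ms4a14 (1.69 CPM) lie below that level. The members tested had fitted values from −1.93 to −0.73, all smaller in size than 3. How often changes of the members' size would be called was not tested. In the measured libraries Clec7a, at −3.03, had an adjusted p of 0.654 by edgeR's quasi-likelihood test. Alternatives were DESeq2 1.42.0, its size factors, 2 other filters, edgeR's legacy method, the replicate number as a block, scaling to the homeostatic list and leaving out each library.

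Named were the 6 members, other Ms4a genes with a mean of at least 1 CPM, at most 6 partner genes with an unadjusted p under 0.05, Ociad1, and the 2 genes nearest in profile to each member tested (0.1 CPM added before the log). Other names were chosen after their values were seen. Members and lists were chosen with earlier results of these data known. Sequences and coordinates are from RefSeq (GRCm38.p6), and transcript lengths, coding sequences and shared windows from GENCODE M21 (the coding transcript paired with a RefSeq record, or the longest). The lists of dendritic cell (median log2 fold change −0.52), B cell (−0.66), mast cell (0.19), neutrophil (−2.06), neuron (1.42), astrocyte (1.41), oligodendrocyte (0.76), endothelial (0.46), homeostatic (−0.38), disease-associated (−1.70) and interferon (−1.33) genes were described only.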

Additional observations from a re-analysis of the deposited data

How the results depend on the processing

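Among 77 values recomputed under alternatives, 68 stayed on their side of 0 and of the threshold (or within the spread between replicates), 3 newly passed the threshold, 6 moved and 0 changed direction. Genes passing an adjusted p of 0.05 numbered 0 in edgeR (1174 before adjustment), 90 in DESeq2 (0.42% of genes, 0 members) and 4320 with the replicate block. It ran from 0 to 653 when 1 library was left out, with 50 without AD replicate 1 and 653 without AD replicate 2. The cause was not tested.

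The members' median ran from −1.69 (without AD/KO replicate 1) to −0.46 (without AD replicate 1). It was −0.54 with scaling to the homeostatic list and −1.03 by DESeq2, where the members' adjusted p ran from 0.270 to 0.794. With the replicate block, Ms4a6c (−1.11), Ms4a4a (−1.84) and Ms4a6b (−0.85) had an adjusted p of 0.0283, 0.0355 and 0.0351 by edgeR's quasi-likelihood test, where 6.63% of genes passed in this direction. Over the other alternatives their adjusted p ran from 0.262 to 0.99992. Labels do not say that equal replicate numbers mark a shared litter or day. Deviations from the group mean correlated at 0.68 between libraries of equal number (across genes, 2 pairs). Depth limited Ms4a4b, which could be tested without the filter, or without AD replicate 1, AD/KO replicate 1 or AD/KO replicate 2, and in no other setting (log2 fold change of −1.86, adjusted p = 0.691 without the filter, edgeR quasi-likelihood).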
